A study of Mus musculus with 26 samples.

Results

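The transcripts of 10 integrin chains were followed through CD4 T cells of mice with EAE (experimental autoimmune encephalomyelitis), in which immunity to myelin inflames the brain and spinal cord. The 10 chains, of 24848 gene symbols in the tables, were taken by name: the alpha chains Itga1, Itga3, Itga4, Itgae, Itgal and Itgav and the beta chains Itgb1, Itgb2, Itgb7 and Itgb8. They were chosen with earlier results of these data known. The samples were regulatory (Treg) or conventional (Tconv) CD4 T cells sorted from CNS (central nervous system) or from dLN (draining lymph nodes) of C57BL/6 mice at day 14 of active EAE. The mice labelled icKO carried Foxp3Cre-ERT2, a tamoxifen-inducible Cre expressed from the Foxp3 locus of Treg cells, together with Tnfrsf1bFlox/Flox, floxed alleles of the gene of the TNF receptor TNFR2. The mice labelled Ctrl carried Foxp3Cre-ERT2 without floxed alleles. All mice of both genotypes received tamoxifen from day 7 to day 14, so both carried the Cre and the drug. Each of the 8 groups held 3 samples, except CNS Tconv icKO and CNS Tconv Ctrl with 4 each.

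Integrins are cell-surface receptors made of 1 alpha and 1 beta chain, and they hold cells to other cells and to matrix. The beta chain sets the family: Itgal pairs with Itgb2 to form LFA-1, the receptor of ICAM proteins that T cells use to stick to endothelium and to antigen-presenting cells. Itga4 pairs with Itgb1 to form VLA-4, which binds VCAM-1 and takes part in the entry of T cells into the CNS, or with Itgb7 to form the gut-homing receptor of MAdCAM-1. Itgae (CD103) pairs with Itgb7 and binds E-cadherin. Itga1 and Itga3 pair with Itgb1 and bind collagen and laminin, and Itgav pairs with Itgb8 to release active TGF-beta from its latent complex.

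The RefSeq tables of promoters (250 bases before to 50 bases after a transcript start, build GRCm38.p6) matched 7 of the 10 chains. Those of Itga3, Itga4 and Itgb1 are shown. Among the chains with an entry, these had the largest differences between genotypes or tissues that passed the edgeR threshold given below. Itga1 and Itgb8 had entries and larger differences that did not pass it. Capitals mark every match, on either strand, to TGANTCA (an AP-1 motif), TGTGGT (RUNX), GGGCGG (a GC box) or ACTTCC (ETS). Each sequence runs 5′ to 3′ on the strand of its gene.
Itga3, upstream start, chr11:95076665-95076964, minus strand: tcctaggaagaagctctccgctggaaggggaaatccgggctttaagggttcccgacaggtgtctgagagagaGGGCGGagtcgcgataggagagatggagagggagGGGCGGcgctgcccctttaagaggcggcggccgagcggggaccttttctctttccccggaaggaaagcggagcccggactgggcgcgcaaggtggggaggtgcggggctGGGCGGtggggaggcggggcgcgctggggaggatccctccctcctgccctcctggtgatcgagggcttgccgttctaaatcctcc
Itga3, downstream start, chr11:95069149-95069448, minus strand: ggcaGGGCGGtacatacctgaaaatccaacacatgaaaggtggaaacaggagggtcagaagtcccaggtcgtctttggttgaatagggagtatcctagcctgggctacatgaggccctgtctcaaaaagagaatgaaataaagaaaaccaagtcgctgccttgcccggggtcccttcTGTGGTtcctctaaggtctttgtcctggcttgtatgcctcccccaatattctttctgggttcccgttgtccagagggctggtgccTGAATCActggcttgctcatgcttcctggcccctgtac
Itga4, chr2:79255176-79255475, plus strand: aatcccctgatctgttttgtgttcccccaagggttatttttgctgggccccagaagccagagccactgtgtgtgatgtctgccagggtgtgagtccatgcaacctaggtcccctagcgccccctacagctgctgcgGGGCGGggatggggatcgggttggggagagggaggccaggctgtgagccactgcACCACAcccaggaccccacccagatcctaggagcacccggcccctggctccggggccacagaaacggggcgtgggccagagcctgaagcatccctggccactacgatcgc
Itgb1, chr8:128685404-128685703, plus strand: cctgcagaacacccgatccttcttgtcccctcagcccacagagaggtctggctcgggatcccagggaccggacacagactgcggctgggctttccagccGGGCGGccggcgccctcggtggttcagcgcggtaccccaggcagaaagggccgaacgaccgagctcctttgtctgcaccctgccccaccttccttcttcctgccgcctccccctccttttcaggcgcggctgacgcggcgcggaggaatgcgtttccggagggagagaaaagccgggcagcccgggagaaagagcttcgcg
The upstream Itga3 window held 3 GC boxes and none of the other 3 motifs. The downstream one held 1 AP-1 motif, 1 RUNX motif and 1 GC box. The Itga4 window held 1 RUNX motif, 60 bases before the start and in reverse orientation, and 1 GC box, and the Itgb1 window held 1 GC box. Among 32851 promoters of the same length, 7.81% held the AP-1 motif, 16.8% the RUNX motif, 35.7% the GC box and 23.8% the ETS motif. These matches describe the letters only.

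The 25 libraries used here had total expected counts of 12.4 M to 18.5 M, with 11089 to 14259 genes detected. A further library, labelled replicate 3 of dLN Tconv icKO, is left out except where stated: it had 7.78 M counts, 6005 detected genes and 3365 CPM of summed neutrophil markers. Levels are CPM, the counts of a gene scaled to the size of its library (by TMM), marker sums are CPM of the library total, and fold changes are log2 with their standard error. A gene is called where its edgeR quasi-likelihood p, adjusted over 13500 tested genes, is under 0.05. The labels number the samples as mice without naming them, so the p-values measure the spread between these samples. Of the 8 CNS Tconv libraries, 5 came in files whose names carry the other genotype's prefix than their labels do (labelled Ctrl 3 and 4 and icKO 2, 3 and 4). The groups follow the labels, and the called results of the chains in CNS Tconv cells are also given without these 5. That leaves 1 icKO and 2 Ctrl libraries of CNS Tconv cells, and the lone icKO library is assumed to vary like the other groups, so such values check the size of a difference more than its call. Tnfrsf1b, the targeted gene, had 352 to 510 CPM in CNS Treg icKO and 454 to 711 CPM in CNS Treg Ctrl libraries, a log2 fold change of -0.59 ± 0.16 that was not called (edgeR adjusted p = 0.558). In dLN Treg cells icKO libraries had 617.6 to 619.8 CPM and Ctrl libraries 736 to 857 CPM (log2 fold change -0.36 ± 0.16, edgeR adjusted p = 1), and in CNS Tconv cells, where Foxp3 was at 0.11 to 1.5 CPM, it was higher in icKO (+0.72 ± 0.14, edgeR adjusted p = 0.00910), and was not called without the 5 libraries (+0.83, edgeR adjusted p = 0.0895) or with all 26 (+0.71, edgeR adjusted p = 1). The labels do not say which exons were floxed, so counts over the whole gene check the deletion only in part. Foxp3 itself had 23.8 to 69.4 CPM in all Treg libraries.

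Monocyte and macrophage transcripts were abundant in the libraries of CNS Treg cells. The summed level of 12 such markers was 3666 to 4647 CPM in CNS Treg icKO and 3712 to 5728 CPM in CNS Treg Ctrl libraries, against 349 to 731 and 102 to 900 CPM in dLN Treg icKO and Ctrl, and 30.8 to 243 and 6.26 to 177 CPM in CNS Tconv icKO and Ctrl. At least 11 of these 12 markers were above 0 in every CNS Treg library, and Lyz1 was the only one at 0 in any of them. The 10 microglia markers summed to 2043 to 2719 CPM in CNS Treg libraries and to at most 481 CPM in the other 19. The 6 neutrophil markers summed to 70.0 to 1306 CPM in CNS Treg libraries and to at most 11.3 CPM elsewhere. Myeloid cells also make Itgb1, Itgb2, Itga4 and Itgav, and the part of these transcripts in the CNS Treg values below was not tested.

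**Figure D1:**
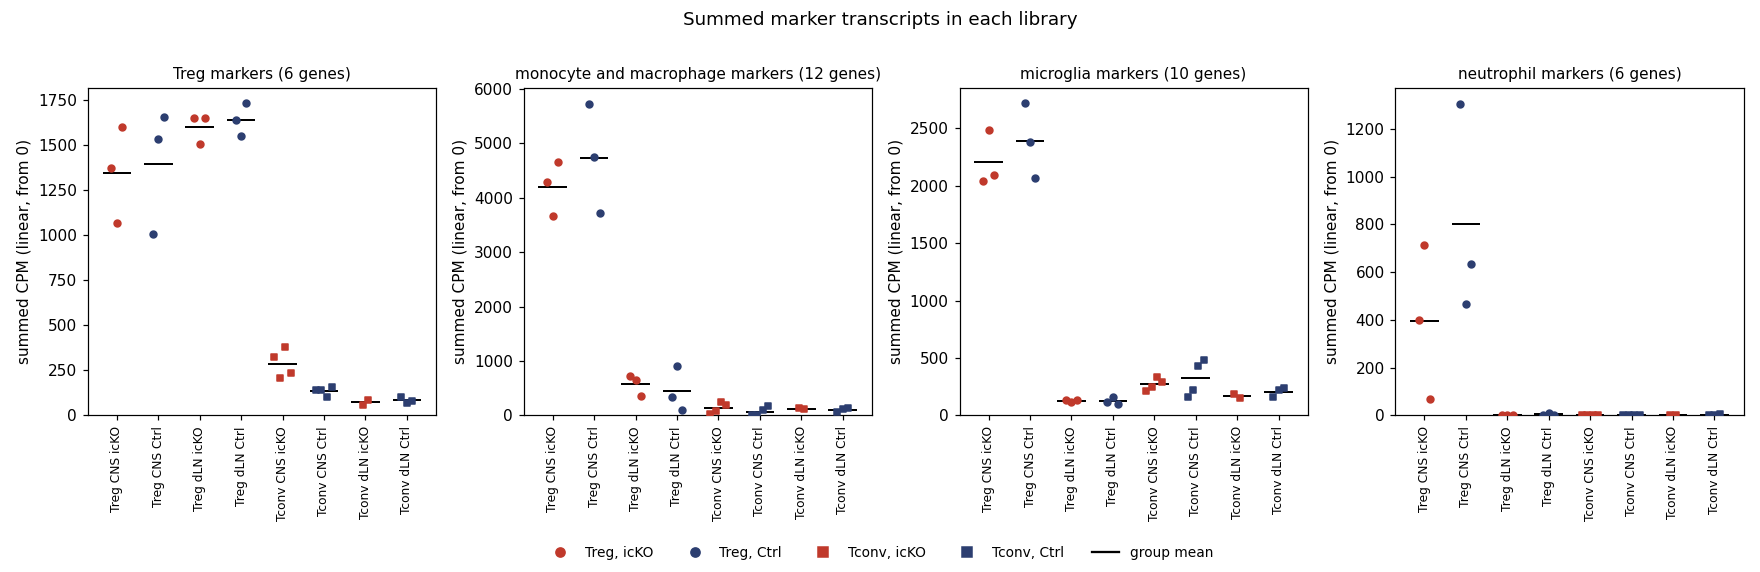
Summed CPM of the markers of 4 cell types in each of 25 libraries, on linear axes from 0, with icKO in red, Ctrl in blue and a line at each group mean. The monocyte and macrophage, microglia and neutrophil sums stand high in the 6 CNS Treg libraries, and the Treg sum in all 12 Treg libraries.

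By TPM, which scales counts to transcript length and so allows genes to be compared, the beta chains were the most abundant members. The median TPM over the 25 libraries was 1023 for Itgb7, 624 for Itgb1 and 498 for Itgb2, and 281 for Itgal, the first of the alpha chains. The other alpha chains were far lower, with medians of 18.6 TPM for Itga4, 11 for Itgav, 6.20 for Itgae, 2.29 for Itga3 and 0.600 for Itga1. Itgb8, the partner of Itgav, had a median of 0.570 TPM and was at 0 in 3 of the 25 libraries. All 10 chains passed the filter on low counts. The 3 beta chains Itgb1, Itgb2 and Itgb7 together made up 78.4% to 89.9% of the summed TPM of the 10. The gene of Itga4 overlaps exons of Cerkl on the other strand by 1124 bases, and the libraries keep no strand. Cerkl was counted at 5 to 79 reads per library, with a median of 33 against 1648 for Itga4.

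**Figure D2:**
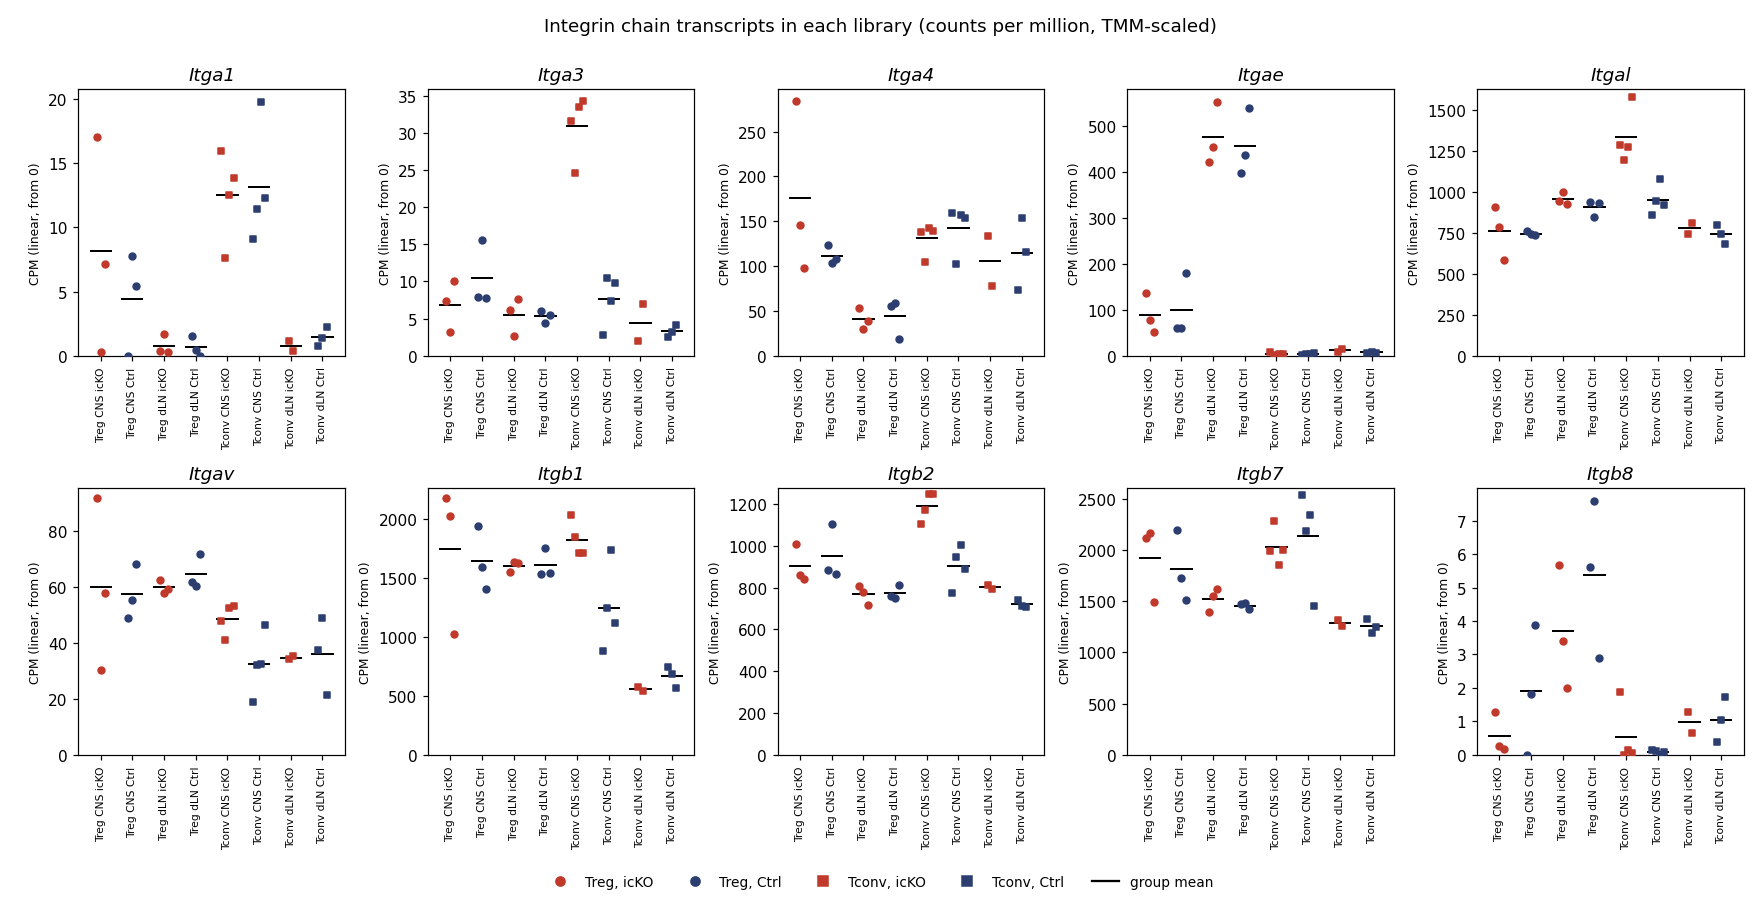
TMM-scaled CPM of each integrin chain in each of 25 libraries by group, on linear axes from 0, with icKO in red, Ctrl in blue, Treg as circles, Tconv as squares and a line at each group mean. Itgae is high in the 6 dLN Treg libraries (397 to 553 CPM), and Itga3 in the 4 CNS Tconv icKO libraries (24.6 to 34.3 CPM).

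Itga3 separated the genotypes in CNS Tconv cells. It had 31.6, 24.6, 33.5 and 34.3 CPM in the 4 CNS Tconv icKO libraries, against 2.73, 10.5, 7.36 and 9.84 CPM in the 4 CNS Tconv Ctrl libraries, where every icKO library lay above every Ctrl library. The log2 fold change was +2.02 ± 0.44 (edgeR quasi-likelihood adjusted p = 0.0158). Itga3, at chr11:95044474-95076801 on the minus strand, encodes the alpha chain of a laminin receptor. No other group reached such levels: its mean was 10.5 ± 4.47 CPM in CNS Treg Ctrl (SD, n = 3), 6.83 ± 3.48 CPM in CNS Treg icKO (SD, n = 3) and under 6 CPM in the dLN groups.
Both chains of LFA-1 rose with it. Itgal, at chr7:127296260-127335138, had 1285, 1196, 1273 and 1578 CPM in CNS Tconv icKO and 858, 942, 1080 and 922 CPM in CNS Tconv Ctrl libraries, with no overlap and a log2 fold change of +0.49 ± 0.11 (edgeR adjusted p = 0.0214). Itgb2, at chr10:77530252-77565708, had 1102, 1171, 1246 and 1248 CPM in CNS Tconv icKO and 772, 948, 1004 and 887 CPM in CNS Tconv Ctrl libraries (log2 fold change +0.40 ± 0.09, edgeR adjusted p = 0.0248). These groups did not overlap either. Itgal per Itgb2 by TPM lay between 0.545 and 0.675 in icKO, against 0.531 to 0.595 in Ctrl, ranges that overlap.
Thus 3 of 10 chains were called in CNS Tconv cells, where 3.1% of 13500 genes were called. Itgb1, the beta chain of Itga1, Itga3 and Itga4, had 2032, 1848, 1710 and 1714 CPM in icKO and 880, 1248, 1742 and 1117 CPM in Ctrl libraries. Ctrl replicate 3 lay within the icKO range, and the log2 fold change of +0.55 ± 0.19 was not called (edgeR adjusted p = 0.123). Itgav (+0.59 ± 0.27, edgeR adjusted p = 0.264) was not called, and Itga4 ranged over 105 to 142 CPM in icKO libraries, against 102 to 159 CPM in those of Ctrl. The members' median log2 fold change was +0.44, against 0 over all genes. This describes the list only, which was chosen with earlier results of these data known.
Leaving out 1 library at a time lost the call of Itga3 without icKO replicate 3 (edgeR adjusted p = 0.0512), of Itgal without Ctrl replicate 1 or icKO replicate 4 (highest edgeR adjusted p = 0.0775) and of Itgb2 without Ctrl replicate 1 or icKO replicate 3 or 4 (highest edgeR adjusted p = 0.0760). With all 26 libraries the log2 fold changes stayed at +2.02, +0.48 and +0.39 and the edgeR adjusted p rose to 0.508 for Itga3, 0.661 for Itgal and 0.162 for Itgb2. Without the 5 CNS Tconv libraries with conflicting names, the log2 fold changes were +2.26, +0.53 and +0.37 (edgeR adjusted p = 0.168, 0.151 and 0.274, from 1 icKO and 2 Ctrl libraries with the spread of the other groups). Transcripts of the Treg list differed in the same libraries: its 6 markers summed to 206 to 377 CPM in CNS Tconv icKO and 104 to 157 CPM in CNS Tconv Ctrl, with Il2ra at 121 to 204 and 54.4 to 84.5 CPM, while Foxp3 was at 0.11 to 0.39 and 0.38 to 1.5 CPM and Lrrc32 at 0 in at least 1 library of each group. Their part in the result was not tested.

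In the other 3 populations no integrin chain was called between genotypes. No member and 0% of the 13500 genes were called by edgeR in CNS Treg, dLN Treg or dLN Tconv cells, and no member reached an unadjusted p under 0.05 in any of them. At that unadjusted level there were 915, 146 and 197 genes, and DESeq2 called 7, 2 and 2 and limma voom 0, 1 and 0 genes, with 0 members by either. Among the members in CNS Treg cells, Itga4 had 284, 146 and 97.7 CPM in icKO and 124, 103 and 108 CPM in Ctrl libraries. The ranges overlapped, and icKO replicate 1 carried most of the difference (log2 fold change +0.66 ± 0.37, edgeR adjusted p = 0.771). The 7 CD8 T and NK markers summed to 242 to 539 CPM in CNS Treg icKO and 117 to 153 CPM in CNS Treg Ctrl, with Cd8a at 58.2 to 140 and 29.2 to 37.2 CPM, Ncr1 at 0 in at least 1 library of each group and Klra1 at 0 in all 3 icKO libraries. Their part in the Itga4 values was not tested. In dLN Tconv cells Itgb2 had 811 and 793 CPM in icKO and 741, 714 and 706 CPM in Ctrl libraries, without overlap, and was not called (edgeR adjusted p = 1). In dLN Treg cells the group means of Itgae were 476 ± 68.6 CPM in icKO and 457 ± 73.3 CPM in Ctrl (SD, n = 3 each), and those of Itgb1 were 1605 ± 44.0 and 1612 ± 125 CPM.
Whether the genotype difference in the CNS itself differed between Treg and Tconv cells was tested as an interaction, in which 0.178% of genes and no member were called by edgeR. Itga3 came nearest, at -2.64 ± 0.67 on the log2 scale (edgeR adjusted p = 0.0775), with Itgb2 at -0.47 ± 0.14 (edgeR adjusted p = 0.131) and Itgal at -0.46 ± 0.17 (edgeR adjusted p = 0.211). At an unadjusted p under 0.05 there were 4 members and 2026 genes. DESeq2 called 2 of the 10 (Itga3 and Itgb2) and 428 genes, against 24 genes by edgeR. By limma voom 0 members and 3 genes were called. In the test of whether the genotype difference of Tconv cells differed between CNS and dLN, edgeR called no member and no gene (0% called; 3 members and 1101 genes at an unadjusted p under 0.05, 75 genes by DESeq2 and 24 by limma voom, 0 members by either), with Itga3 at +1.61 ± 0.73 (edgeR adjusted p = 0.573).

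**Figure D3:**
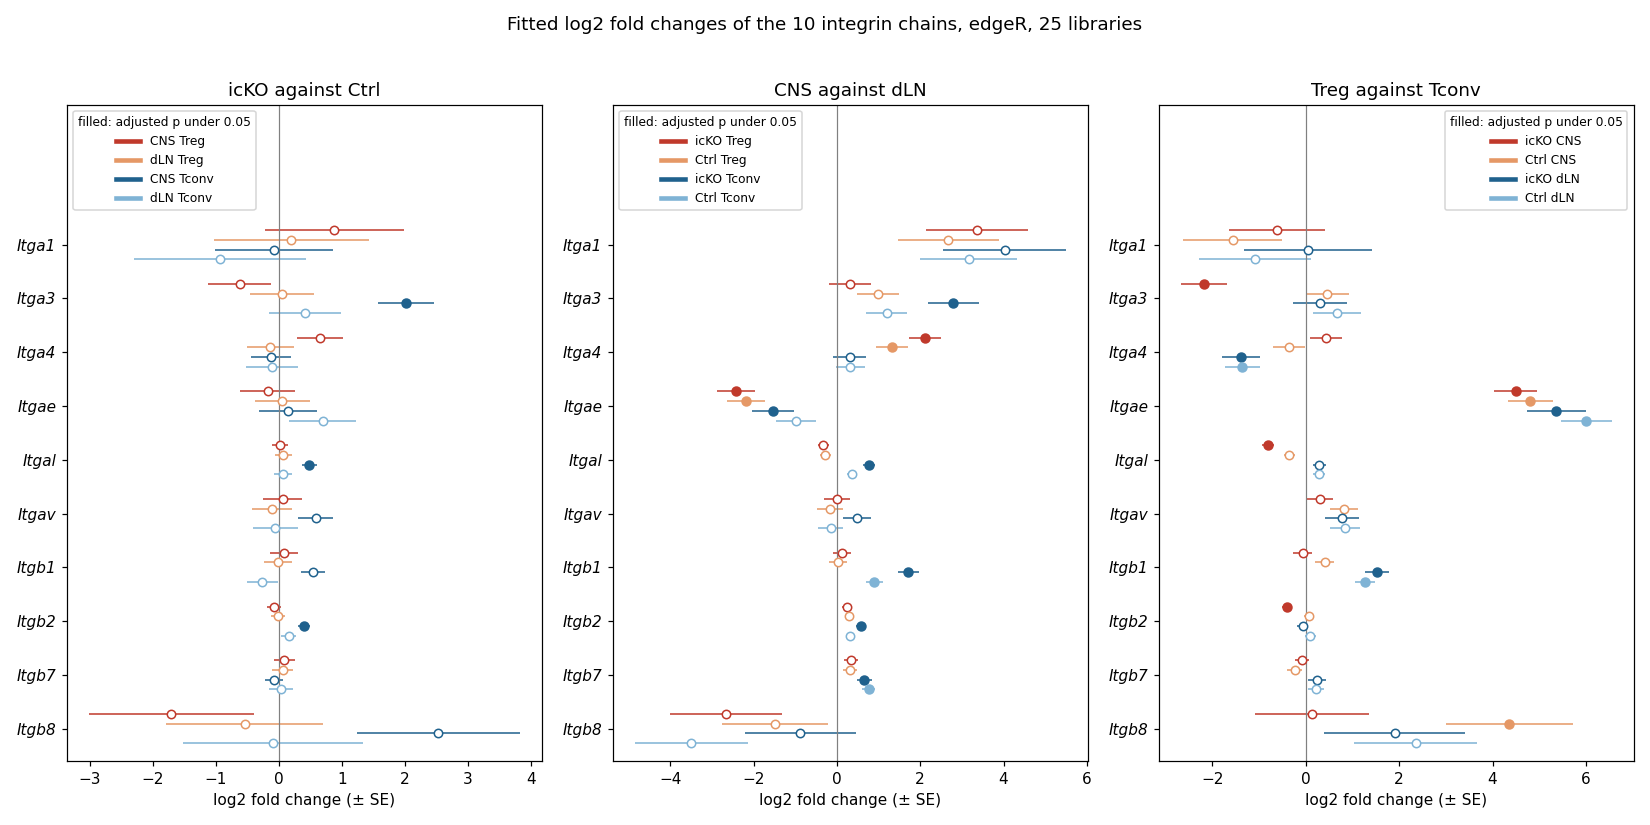
Log2 fold change ± SE of each integrin chain for icKO against Ctrl, CNS against dLN and Treg against Tconv, with 4 comparisons in each panel; filled points have an edgeR adjusted p under 0.05. Itgae is the chain farthest from 0 between cell types, at +4.49 to +6.01, and is below 0 in all 4 comparisons of CNS against dLN, 3 of them called.

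Itgae, the alpha chain of the E-cadherin receptor, marked the Treg cells. In dLN Treg cells it had 422, 454 and 553 CPM in icKO and 397, 436 and 539 CPM in Ctrl libraries, against 8.39 and 14.7 CPM in dLN Tconv icKO and 5.46, 8.78 and 7.05 CPM in dLN Tconv Ctrl libraries. No Treg library came near a Tconv library. The log2 fold change was +5.37 ± 0.63 in icKO (edgeR adjusted p = 9.09e-06) and +6.01 ± 0.55 in Ctrl (edgeR adjusted p = 2.12e-07). Its gene lies at chr11:73090583-73147446, and Haspin, a gene in one of its introns on the other strand, shares no exon bases with it.
In the CNS, Itgae had 136, 78.6 and 52.7 CPM in Treg icKO and 59.6, 61.3 and 181 CPM in Treg Ctrl libraries, against 7.31, 1.85, 3.24 and 3.21 CPM in Tconv icKO and 1.47, 3.12, 3.64 and 6.13 CPM in Tconv Ctrl libraries. Treg and Tconv cells again did not overlap (+4.49 ± 0.47 in icKO, edgeR adjusted p = 1.01e-06; +4.81 ± 0.47 in Ctrl, edgeR adjusted p = 6.76e-07). Without the 5 CNS Tconv libraries the log2 fold changes were +3.59 in icKO and +5.41 in Ctrl (edgeR adjusted p = 0.00729 and 1.21e-05). The order of the group means put the dLN Treg groups first, the CNS Treg groups next and the 4 Tconv groups last. The 2 genotypes overlapped at each of these levels, and the step between dLN Treg and CNS Treg cells was a gap.

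Itga4, the alpha chain of VLA-4, ran the other way in dLN. In the CNS its group means were 176 CPM in Treg and 131 CPM in Tconv icKO cells. Those of Ctrl were 112 CPM in Treg and 143 CPM in Tconv cells, and neither difference was called. In dLN it was lower in Treg than in Tconv cells: 53.1, 29.99 and 38.7 CPM in Treg icKO against 133 and 77.9 CPM in Tconv icKO (log2 fold change -1.38 ± 0.41, edgeR adjusted p = 0.0337), and 55.5, 59.1 and 19.0 CPM in Treg Ctrl against 73.2, 154 and 116 CPM in Tconv Ctrl (-1.36 ± 0.38, edgeR adjusted p = 0.0211). Neither pair of groups overlapped. With all 26 libraries both calls were lost (edgeR adjusted p = 0.677 in icKO and 0.633 in Ctrl), and in icKO the log2 fold change moved to -0.76. Leaving out 1 library lost the call in 3 of 5 cases in icKO (Treg 2 or 3, or Tconv 1; highest edgeR adjusted p = 0.455) and in 3 of 6 in Ctrl (Treg 3, or Tconv 2 or 3; highest edgeR adjusted p = 0.122).
Itgb1 was higher in dLN Treg than in dLN Tconv cells, at 1555, 1633 and 1628 CPM against 577 and 539 CPM in icKO (+1.52 ± 0.26, edgeR adjusted p = 0.000481) and 1536, 1756 and 1545 CPM against 748, 687 and 569 CPM in Ctrl (+1.27 ± 0.22, edgeR adjusted p = 0.000513). The gene of Itgb1, at chr8:128685654-128733200, encodes the beta chain shared by the collagen, laminin and VCAM-1 receptors. Thus 3 of 10 chains were called in each genotype in dLN, where 9.91% of genes were called in icKO and 11.5% in Ctrl. Itgav was not called, at +0.78 ± 0.36 in icKO (edgeR adjusted p = 0.198) and +0.84 ± 0.32 in Ctrl (edgeR adjusted p = 0.0930), although no Treg library overlapped a Tconv library. Other settings did call Itgav in icKO and Ctrl: limma voom (adjusted p = 0.0187 and 0.00242) and edgeR with the compared groups alone (0.00240 and 0.0339). The DESeq2 Wald test called it in Ctrl (adjusted p = 0.0488).
Itgb8, whose product with Itgav activates TGF-beta, had 5.67, 3.41 and 1.99 CPM in dLN Treg icKO and 5.61, 7.59 and 2.91 CPM in dLN Treg Ctrl libraries, against 1.29 and 0.667 CPM in dLN Tconv icKO and 0.385, 1.03 and 1.73 CPM in dLN Tconv Ctrl libraries. Its log2 fold changes of +1.90 ± 1.51 and +2.35 ± 1.32 in icKO and Ctrl were not called (edgeR adjusted p = 0.500 and 0.283). In Ctrl, Itgb8 was called by limma voom (adjusted p = 0.00823) and by edgeR with the compared groups alone (0.0254).

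In the CNS, Itgae was again higher in Treg cells of both genotypes. In CNS Ctrl cells 2 chains were called, where 17.9% of genes were: Itgae, above, and Itgb8 (log2 fold change +4.36 ± 1.37, edgeR adjusted p = 0.0303). Itgb8 had 0, 1.83 and 3.87 CPM in Treg Ctrl and 0.147, 0.111, 0 and 0.0757 CPM in Tconv Ctrl libraries, so the groups overlap at 0, and with all 26 libraries it was not called (edgeR adjusted p = 0.0701). Without the 5 CNS Tconv libraries with conflicting names, its edgeR adjusted p was 0.0792. Leaving out 1 library lost the call in 5 of 7 cases (Treg 2 or 3, or Tconv 2, 3 or 4; highest edgeR adjusted p = 0.121). Itgav (+0.82 ± 0.29, edgeR adjusted p = 0.0553) and Itgal (-0.35 ± 0.12, edgeR adjusted p = 0.0504) lay just outside the threshold.
In CNS icKO cells 4 chains were called, where 12.6% of genes were: Itgae was higher in Treg cells, and Itga3 (-2.18 ± 0.50, edgeR adjusted p = 0.00479), Itgal (-0.81 ± 0.12, edgeR adjusted p = 0.000109) and Itgb2 (-0.40 ± 0.10, edgeR adjusted p = 0.0116) were lower. Itgal had 907, 784 and 585 CPM in CNS Treg icKO libraries, all below the 4 CNS Tconv icKO libraries given above, and Itgb2 had 1010, 858 and 841 CPM. Itga3 had 7.31, 3.13 and 10.05 CPM. With all 26 libraries the edgeR adjusted p was 0.179 for Itga3 and 0.0539 for Itgal, and without the 5 CNS Tconv libraries it was 0.104 for Itga3 and 0.339 for Itgb2. Itgb2 also lost its call without CNS Treg icKO replicate 2 or 3 (highest edgeR adjusted p = 0.0510).

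Between tissues 2 alpha chains were called in the Treg libraries of each genotype, a count near the share of all genes called there. Itga4 was higher in the CNS, at 284, 146 and 97.7 CPM in CNS Treg icKO against 53.1, 29.99 and 38.7 CPM in dLN Treg icKO (log2 fold change +2.12 ± 0.38, edgeR adjusted p = 0.000494) and 124, 103 and 108 CPM in CNS Treg Ctrl against 55.5, 59.1 and 19.0 CPM in dLN Treg Ctrl (+1.32 ± 0.38, edgeR adjusted p = 0.0147). Itgae was lower in the CNS, by the library values given above (-2.42 ± 0.46, edgeR adjusted p = 0.000696 in icKO; -2.18 ± 0.45, edgeR adjusted p = 0.00167 in Ctrl). In neither chain did CNS and dLN libraries of a genotype overlap. The other 8 chains were not called in either genotype, so that 2 of 10 were. Over all genes 22.5% were called in icKO and 21.8% in Ctrl, shares near this count. With all 26 libraries the fold changes of Itga4 stayed at +2.08 and +1.31 and the calls were lost (edgeR adjusted p = 0.166 and 0.466), while those of Itgae held. Without dLN Treg Ctrl replicate 3, Itga4 in Ctrl was at an edgeR adjusted p of 0.0862. In bulk RNA, fewer cells of a type and less RNA per cell cannot be told apart. The monocyte and macrophage transcripts given above were higher in the same CNS Treg libraries.
The abundant beta chains of the Treg cells were not called between tissues by edgeR. Itgb1 had 2181, 2027 and 1026 CPM in CNS Treg icKO libraries and 1944, 1591 and 1409 CPM in CNS Treg Ctrl libraries. These ranges enclose the dLN Treg libraries of the same genotype, which lay at 1555 to 1633 CPM (icKO) and 1536 to 1756 CPM (Ctrl). Itgb7 had 2112, 2167 and 1487 CPM in CNS Treg icKO against 1390, 1547 and 1623 CPM in dLN Treg icKO libraries, which overlap. In Ctrl it had 2189, 1730 and 1511 CPM in CNS Treg against 1467, 1480 and 1419 CPM in dLN Treg libraries, which do not. Itgb2 had 882, 1106 and 863 CPM in CNS Treg Ctrl against 757, 751 and 810 CPM in dLN Treg Ctrl libraries, again without overlap, and came nearest to the threshold among them (+0.30 ± 0.11, edgeR adjusted p = 0.0550). Other settings did call Itgb2 in Ctrl: edgeR with DESeq2 size factors (adjusted p = 0.0322), edgeR with the filter of 10 CPM (0.0340), the DESeq2 Wald test (0.00925) and limma voom (0.0141). In icKO the DESeq2 Wald test called it (adjusted p = 0.0490).
Itgal pointed the other way in level: it had 762, 740 and 735 CPM in CNS Treg Ctrl against 940, 845 and 930 CPM in dLN Treg Ctrl libraries, and was not called. By TPM, Itgal per Itgb2 was 0.370 to 0.488 in CNS Treg icKO against 0.620 to 0.688 in dLN Treg icKO, and 0.357 to 0.461 in CNS Treg Ctrl against 0.599 to 0.661 in dLN Treg Ctrl libraries. No CNS Treg library reached a dLN Treg library in this ratio. Myeloid cells carry Itgb2 with other alpha chains such as Itgam, and their part in the ratio was not tested. Itgav, on chromosome 2, had 91.6, 30.3 and 57.7 CPM in CNS Treg icKO against 62.3, 57.8 and 59.3 CPM in dLN Treg icKO libraries. The wider spread of the CNS libraries enclosed the dLN values.
Set against each other by TPM, the 2 alpha partners of Itgb7 shifted. Itgae made up 55.7% to 58.7% of Itgae plus Itga4 in CNS Treg icKO and 55.9% to 81.5% in CNS Treg Ctrl libraries, against 95.4% to 97.5% in dLN Treg icKO and 94.9% to 98.7% in dLN Treg Ctrl libraries. In Tconv cells the share was 4.45% to 12.2% in CNS icKO and 2.37% to 9.48% in CNS Ctrl, against 14.2% and 33.2% in dLN icKO and 13.1% to 16.4% in dLN Ctrl. In both cell types and genotypes every CNS library thus lay below every dLN library.

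**Figure D4:**
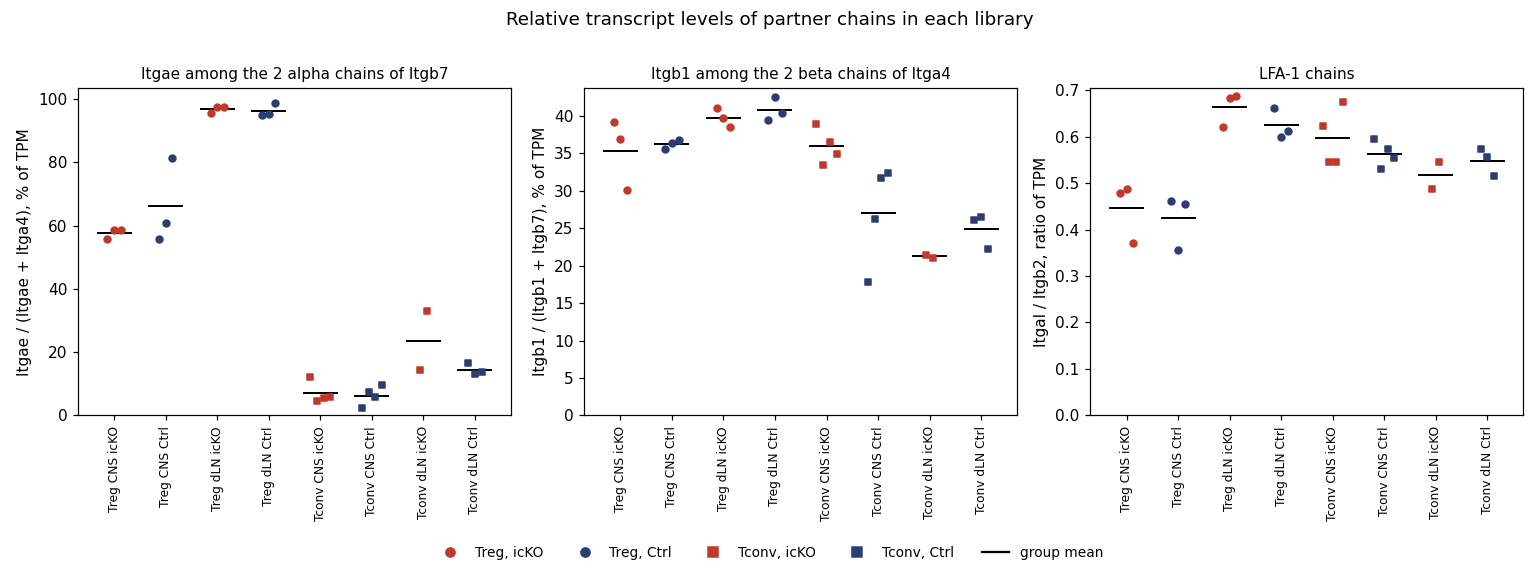
Relative transcript levels by TPM in each of 25 libraries: Itgae as a share of Itgae plus Itga4, Itgb1 as a share of Itgb1 plus Itgb7, and Itgal over Itgb2, with icKO in red, Ctrl in blue and a line at each group mean. The Itgae share is 94.9% or more in dLN Treg, 55.7% to 81.5% in CNS Treg and 33.2% or less in Tconv libraries.

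In Tconv cells the beta chains Itgb1 and Itgb7 were higher in the CNS in both genotypes. Itgb1 was higher in CNS than in dLN Tconv cells, at 2032, 1848, 1710 and 1714 CPM against 577 and 539 CPM in icKO (+1.71 ± 0.25, edgeR adjusted p = 8.19e-05), and at 880, 1248, 1742 and 1117 CPM against 748, 687 and 569 CPM in Ctrl (+0.90 ± 0.21, edgeR adjusted p = 0.00963). Itgb7, at chr15:102215995-102231944, the beta chain of the gut-homing and E-cadherin receptors, had 1988, 2285, 1849 and 1997 CPM in CNS against 1315 and 1257 CPM in dLN Tconv icKO (+0.66 ± 0.18, edgeR adjusted p = 0.0168), and 2535, 2188, 2343 and 1457 CPM in CNS against 1323, 1192 and 1243 CPM in dLN Tconv Ctrl libraries (+0.77 ± 0.16, edgeR adjusted p = 0.00422). No CNS library overlapped a dLN library in either chain and genotype.
Itgb1 made up 33.5% to 38.9% of Itgb1 plus Itgb7 by TPM in CNS Tconv icKO and 17.8% to 32.3% in CNS Tconv Ctrl libraries, against 21.1% and 21.5% in dLN Tconv icKO and 22.2% to 26.4% in dLN Tconv Ctrl. The share in CNS icKO libraries was above every dLN value, and the CNS Ctrl libraries spanned the dLN Ctrl range.
In icKO Tconv cells 4 further chains were called in the CNS: Itga3 (+2.80 ± 0.61, edgeR adjusted p = 0.00307), Itgal (+0.78 ± 0.14, edgeR adjusted p = 0.000631) and Itgb2 (+0.57 ± 0.12, edgeR adjusted p = 0.00205) were higher, and Itgae was lower (-1.54 ± 0.50, edgeR adjusted p = 0.0428). In dLN Tconv icKO libraries Itga3 had 2.01 and 6.90 CPM, Itgal 743 and 811 CPM and Itgb2 811 and 793 CPM. Leaving out 1 library at a time lost the call of Itgae in 5 of 6 cases, all but that of CNS icKO replicate 1 (highest edgeR adjusted p = 0.374), that of Itga3 without dLN icKO replicate 1 (+2.15, edgeR adjusted p = 0.1002, against +3.93 without dLN icKO replicate 2) and that of Itgb7 without dLN icKO replicate 1 or 2 (highest edgeR adjusted p = 0.155). So 6 of 10 chains were called in icKO, where 14.1% of genes were, and 2 of 10 in Ctrl, where 8.9% were. In Ctrl, Itga3 (+1.19 ± 0.49), Itgal (+0.36 ± 0.12), Itgb2 (+0.33 ± 0.10) and Itgae (-0.99 ± 0.48) ran in the same directions with edgeR adjusted p of 0.129, 0.0694, 0.0501 and 0.200. Itgal and Itgb2 were called in Ctrl by the DESeq2 Wald test (adjusted p = 0.0235 and 0.00980) and limma voom (0.0164 and 0.00594). Itgb2 was also called by edgeR with DESeq2 size factors (adjusted p = 0.0453) and with the filter of 10 CPM (0.0363). With the replicate block, edgeR called Itgal (adjusted p = 0.0489) and Itgae (0.0477). The test of the tissue difference between the genotypes in Tconv cells is the one given above, in which no member was called.
Without the 5 CNS Tconv libraries, 1 CNS library remained in icKO, and its spread was taken from the other groups. The log2 fold changes in icKO were then +1.87 for Itgb1, +0.73 for Itgal, +2.83 for Itga3, +0.46 for Itgb2 and +0.64 for Itgb7, close to those above, and -0.65 for Itgae, less than before by a factor over 1.5. Their edgeR adjusted p were 0.00119, 0.0240, 0.0614, 0.142, 0.101 and 0.707. In Ctrl, with 2 CNS libraries, Itgb7 was called (+0.91, edgeR adjusted p = 0.000905) and Itgb1 was not (+0.67, edgeR adjusted p = 0.0559); with all 26 libraries Itgb1 in Ctrl was at an edgeR adjusted p of 0.0580 and Itgae in icKO at 0.0629. Leaving out dLN Tconv Ctrl replicate 3 put Itgb1 in Ctrl at an edgeR adjusted p of 0.0600.
Itga1, the alpha chain of a collagen receptor, was at low levels in dLN and higher ones in the CNS without reaching the threshold by edgeR. It had 15.9, 7.61, 12.6 and 13.9 CPM in CNS Tconv icKO and 9.07, 11.4, 19.8 and 12.3 CPM in CNS Tconv Ctrl libraries, against 1.15 and 0.371 CPM in dLN Tconv icKO and 0.771, 1.37 and 2.25 CPM in dLN Tconv Ctrl libraries. All 8 CNS Tconv libraries lay above all 5 dLN Tconv libraries. The log2 fold changes of +4.02 ± 1.47 in icKO and +3.16 ± 1.16 in Ctrl had edgeR adjusted p of 0.0731 and 0.0920. Other settings did call Itga1 in Tconv cells of icKO and Ctrl: the DESeq2 Wald test (adjusted p = 0.00830 and 0.0250), limma voom (0.0192 and 0.0177) and edgeR with the compared groups alone (0.000865 and 0.0181). In CNS Treg cells it ranged over 17.0, 0.279 and 7.18 CPM in icKO and 0, 7.81 and 5.44 CPM in Ctrl, which overlapped the dLN Treg libraries (+3.35 ± 1.23 and +2.67 ± 1.21, edgeR adjusted p = 0.0531 and 0.117).

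The tissue difference of several chains depended on the cell type. In icKO cells 4 of 10 chains were called in this interaction, where 8.28% of genes were: the CNS difference of Itgb1 (-1.59 ± 0.33, edgeR adjusted p = 0.00400), Itgal (-1.11 ± 0.19, edgeR adjusted p = 0.000970) and Itga3 (-2.49 ± 0.76, edgeR adjusted p = 0.0451) was lower in Treg than in Tconv cells, and that of Itga4 (+1.81 ± 0.53, edgeR adjusted p = 0.0380) was higher. In Ctrl cells 1 of 10 was called, where 3.67% of genes were: Itgal (-0.64 ± 0.18, edgeR adjusted p = 0.0472). Itgb1 (-0.87 ± 0.30, edgeR adjusted p = 0.115) was not called in Ctrl, nor was Itga4 (edgeR adjusted p = 0.302). With all 26 libraries the calls of Itgal in Ctrl, and of Itga3 and Itga4 in icKO, were lost (edgeR adjusted p = 0.661, 0.187 and 0.727). Leaving out 1 library lost the same 3 calls in 11 of 13, 9 of 12 and 8 of 12 cases, with highest edgeR adjusted p of 0.117, 0.255 and 0.266, and lost neither Itgb1 nor Itgal in icKO. Without the 5 CNS Tconv libraries the same 3 values were -0.56, -2.52 and +1.73 (edgeR adjusted p = 0.0759, 0.184 and 0.238), and Itgb1 and Itgal in icKO were at -1.75 and -1.06 (edgeR adjusted p = 0.0128 and 0.0113).

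The remaining integrin chains were read from a list of 17 others, of which 13 were tested. None was called between genotypes. In CNS against dLN Treg cells 6 of 13 were higher in icKO, where 22.5% of all genes were called, and 5 of 13 in Ctrl, where 21.8% were, and 0 were lower. Among them were Itgb5 (+4.24 ± 0.33 and +4.66 ± 0.33, edgeR adjusted p = 2.49e-08 and 6.76e-09), a partner of Itgav, and Itgam (+5.64 ± 0.88 and +4.50 ± 0.82, edgeR adjusted p = 0.000123 and 0.000633), the myeloid partner of Itgb2. Itgam averaged 162 ± 63.5 CPM in CNS Treg icKO and 182 ± 57.3 CPM in CNS Treg Ctrl libraries (SD, n = 3 each), the libraries with the high macrophage and neutrophil sums. In CNS against dLN Tconv cells Itgb5 was higher in both genotypes (+2.44 ± 0.38 in icKO, edgeR adjusted p = 0.000128; +2.14 ± 0.32 in Ctrl, edgeR adjusted p = 0.000231), and in icKO Itgb3 was higher (+1.16 ± 0.38, edgeR adjusted p = 0.0414) and Itga6, a laminin-receptor chain, lower (-1.38 ± 0.22, edgeR adjusted p = 0.000196). With all 26 libraries Itga6 moved to -0.81 and was not called (edgeR adjusted p = 0.634). Itgb5 then kept its call in icKO and lost it in Ctrl (edgeR adjusted p = 0.00451 and 0.0916). The call of Itgb3 was lost in 5 of 6 cases with 1 library left out, and also without the 5 CNS Tconv libraries (edgeR adjusted p = 0.273).
Of 27 tested adaptors and activators, the proteins that switch integrins on from inside the cell or tie them to actin, 0 were called between genotypes. In the CNS against dLN, 5 were higher and 0 lower in icKO Tconv cells and 3 higher and 0 lower in Ctrl Tconv cells, of 27 each, where 14.1% of all genes were called in icKO and 8.9% in Ctrl, shares near these counts. The gene with the smallest p was Zyx, which codes for zyxin of focal adhesions (+1.46 ± 0.21 in icKO and +1.304 ± 0.18 in Ctrl, edgeR adjusted p = 5.51e-05 and 8.88e-05). Rap1b, a GTPase that activates integrins, was higher in icKO Tconv cells (+0.50 ± 0.12, edgeR adjusted p = 0.00566). That call was lost with all 26 libraries (edgeR adjusted p = 0.0757) and without dLN icKO replicate 1 or 2 (highest edgeR adjusted p = 0.0698). In Treg cells 7 of 27 were higher and 0 lower in icKO, and 6 higher and 2 lower in Ctrl, near the 22.5% and 21.8% of all genes called there. Zyx was higher in both (+1.37 ± 0.19 and +1.203 ± 0.19, edgeR adjusted p = 3.02e-05 and 0.000131). Rassf5, the Rap effector RAPL, was lower in Treg than in Tconv cells of dLN Ctrl (-0.40 ± 0.10, edgeR adjusted p = 0.0101). The call was lost with all 26 libraries (edgeR adjusted p = 0.385) and in 3 of 6 cases with 1 library left out (highest edgeR adjusted p = 0.0764).
Among 15 tested ligands, 1 was called between genotypes, in CNS Tconv cells, where 3.1% of all genes were called. It was Icam2, a ligand of LFA-1, lower in CNS Tconv icKO cells, at 52.4 ± 7.80 CPM against 101 ± 18.9 CPM in CNS Tconv Ctrl cells (SD, n = 4 each; log2 fold change -0.94 ± 0.20, edgeR adjusted p = 0.0133). It was not called with all 26 libraries (-0.95, edgeR adjusted p = 1), without the 5 CNS Tconv libraries (-1.14, edgeR adjusted p = 0.134) or without icKO replicate 3 (edgeR adjusted p = 0.0628). Icam2 was also lower in dLN Treg than dLN Tconv cells (-0.97 ± 0.25 in icKO and -1.04 ± 0.23 in Ctrl, edgeR adjusted p = 0.0156 and 0.00435), and with all 26 libraries neither was called (edgeR adjusted p = 0.867 and 0.862; in icKO -0.35). In icKO the call was also lost in 4 of 5 cases with 1 library left out. In CNS against dLN Treg cells 7 ligands were higher and 1 lower in icKO, and 7 higher and 0 lower in Ctrl, of 15 each, where 22.5% and 21.8% of all genes were called, in the libraries with high myeloid sums.
Of the 18 genes of latent TGF-beta and its signalling, 2 were called between genotypes, both higher in CNS Tconv icKO cells, where 3.1% of all genes were called: Furin, a protease that cleaves pro-TGF-beta, had a mean of 548 ± 114 CPM in CNS Tconv icKO against 257 ± 42.3 CPM in CNS Tconv Ctrl libraries (SD, n = 4 each; +1.09 ± 0.26, edgeR adjusted p = 0.0248), and Smad3, a signal carrier of the TGF-beta receptor, had a mean of 129 ± 19.98 against 74.1 ± 16.9 CPM in the same groups (+0.80 ± 0.20, edgeR adjusted p = 0.0327). Without the 5 CNS Tconv libraries Furin was at +0.64 and Smad3 at +0.998 (edgeR adjusted p = 0.525 and 0.134), and with all 26 libraries neither was called (edgeR adjusted p = 0.162 and 0.771). Each call was lost in 5 of 8 cases with 1 library left out, for Furin without Ctrl 1 or 3 or icKO 2, 3 or 4 (highest edgeR adjusted p = 0.0702) and for Smad3 without Ctrl 1 or 2 or icKO 1, 3 or 4 (highest edgeR adjusted p = 0.0985). Lrrc32, which codes for GARP, the docking protein that holds latent TGF-beta for Itgav and Itgb8, was higher in Treg than in Tconv cells of dLN (mean 216 against 0.260 CPM in icKO and 202 against 0.549 CPM in Ctrl, edgeR adjusted p = 0.000136 and 1.82e-05) and of the CNS (+7.01 ± 0.84 in icKO and +6.87 ± 0.84 in Ctrl, edgeR adjusted p = 6.64e-06 and 7.44e-06). The receptor gene Tgfbr2 was lower in dLN Treg than in dLN Tconv cells (-1.25 ± 0.21 in icKO and -1.18 ± 0.20 in Ctrl, edgeR adjusted p = 0.000555 and 0.000321).

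Across the 25 libraries, which share groups and tissues, each chain's log2 CPM was compared with that of other tested genes, as a description. Left out of this were the other chains, genes named Gm plus digits, names with Rik, and V, D and J segments of T cell receptors and antibodies. The gene most like Itgb7 was Lsp1, a leukocyte actin-binding protein (Pearson r = 0.956, n = 25), followed by Crip1 (r = 0.922). Itgae was most like Ceacam-ps1 (r = 0.959) and Ebi3, a cytokine subunit made by Treg cells (r = 0.958). Itgb1 was most like Plekhb2 (r = 0.925) and Il2rb, an IL-2 receptor chain (r = 0.883), Itga4 most like Ccr9, a gut-homing chemokine receptor (r = 0.894), and Itga3 most like Mapkapk3 (r = 0.873). Among Itgb2's nearest 3 genes was Furin (r = 0.877). Within the family, Itga3 and Itgb2 were the closest pair (r = 0.846), and Itga4 and Itgae the most opposed (r = -0.631).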

How the data were processed

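Each library was made from sorted CD4 T cells with SMART-Seq v4 and Nextera kits, per the labels' protocols, and keeps no strand. Reads were processed with FastQC, Trimmomatic, STAR 2.5.3a and RSEM 1.2.28, and build mm10 is named, per the submitters' processing notes. The authors deposited RSEM expected counts and TPM per gene for each sample. TPM served only for comparing genes and partner chains. The expected counts, made whole by rounding, were fitted with edgeR 4.0.16 (R 4.3.3) by the quasi-likelihood test, with filterByExpr (13500 of 24848 genes kept), TMM scaling and 8 group means over 25 libraries, whose median total was 14.4 M counts. Benjamini-Hochberg adjustment ran over all tested genes in each of 16 contrasts, at a threshold of 0.05. Standard errors were taken from the fold change and the F statistic, as the size of the log2 value over the root of F. The library labelled dLN Tconv icKO replicate 3 was left out with an earlier analysis of these data known. That analysis had found it to hold far fewer genes than the others and to widen the spread shared by all groups. The common dispersion, edgeR's measure of this spread, was 0.142 over 25 libraries and 0.364 over all 26. Even the closest match of this library, in whichever group, reached a rank correlation of 0.70. Its marker levels also stood apart.

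The 10 chains were named in every comparison. Up to 3 called genes with the smallest p were eligible to be named per list and contrast, and the 3 genes with the highest Pearson correlation per chain (log2 CPM, prior count 2). The correlated genes were ranked after the exclusions given with them above. The members, lists and rules were chosen with earlier results of these data known. Promoters came from RefSeq (GRCm38.p6) and gene positions from GENCODE on GRCm38. Alternatives were all 26 libraries, removal of the 5 CNS Tconv libraries whose file names disagree with their labels, DESeq2 1.42.0 (its size factors and its Wald test), limma 3.58.1 voom, other low-count filters, a replicate block, a fit of only the groups compared and the removal of each library in turn. Figures were drawn with matplotlib 3.10.9.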

Additional observations from a re-analysis of the deposited data

Results flagged for a closer look

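Itga4 in CNS Tconv icKO replicate 2 was at 104.772 CPM, apart from the other 3 libraries of its group at 137.685 to 142.069 CPM. Itga4 in CNS Tconv Ctrl replicate 2 was at 102.448 CPM, apart from the other 3 at 154.086 to 158.927 CPM. Itgb8 in CNS Tconv icKO replicate 1 was at 1.88454 CPM, where the other 3 libraries were at 0 to 0.135 CPM. A gap of this size is found by chance in about 1 of 20 groups, and 20 groups of 4 libraries were examined.

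The difference between CNS and dLN differed between Treg and Tconv cells, by an interaction test, for 4 chains in icKO cells. On the log2 scale the interaction was -2.49045 for Itga3, 1.80744 for Itga4, -1.10812 for Itgal and -1.58928 for Itgb1. In Ctrl cells it was -0.63927 for Itgal.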

How the results depend on the processing

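Of 32 called log2 fold changes of the chains, none reversed under any alternative, and 20 lost their call under at least 1 alternative other than leaving out a library. All 26 libraries lost 15 of them, removal of the 5 CNS Tconv libraries 15, the compared groups alone 7 of 31, the replicate block 5, limma voom 2, DESeq2 size factors 1, no low-count filter 1 and the DESeq2 Wald test 0. The filter of 10 CPM in 3 libraries removed Itgb8 and lost 0 of 31. Of 128 uncalled values, 50 changed sign under some setting. Of 90 called values of the other listed genes, none reversed, 51 lost their call under some alternative and 30 when 1 library was left out. The cause was not tested.

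For icKO against Ctrl in CNS Tconv cells (3 chains called), 0 were called with all 26 libraries, 0 without the 5 libraries, 1 with the compared groups alone and 1 to 4 when 1 library was left out. For CNS against dLN, Treg cells (2 called per genotype) gave 1 in each genotype with all 26 libraries, 4 by DESeq2 in icKO and 4 by limma voom in Ctrl, and 2 to 3 in icKO and 1 to 3 in Ctrl when 1 library was left out. Over all genes DESeq2 called 3585 in icKO, against 3035 by edgeR, and limma voom 4037 in Ctrl, against 2943 by edgeR. In icKO Tconv cells (6 called) removal of the 5 libraries gave 2, and leaving out 1 library gave 3 to 6. In Ctrl Tconv cells (2 called) all 26 libraries, removal of the 5 and the groups alone gave 1 each, DESeq2 and limma voom gave 5 each, and leaving out 1 library gave 1 to 3. Over all genes DESeq2 called 1829 there and limma voom 1791, against 1202 by edgeR. For Treg against Tconv in the CNS, icKO (4 called) gave 2 with all 26 libraries, 2 without the 5, and 3 to 4 with 1 left out, and Ctrl (2 called) gave 1 with all 26 libraries, by limma voom and with the groups alone, and 1 to 3 with 1 left out. In dLN (3 called per genotype) limma voom and the groups alone gave 5 each in icKO and 6 each in Ctrl, and leaving out 1 library gave 2 to 3 in both. Over all genes limma voom called 3540 in dLN icKO and 3686 in dLN Ctrl, against 1338 and 1556 by edgeR. The interaction of genotype in the CNS (0 called) gave 2 by DESeq2 and 0 to 1 with 1 library left out. DESeq2 called 428 genes in it, against 24 by edgeR. For the tissue interaction in Ctrl, given next, limma voom called 872 genes and edgeR 495. The interaction of tissue in icKO (4 called) gave 2 with all 26 libraries, 2 without the 5, and 2 to 4 with 1 left out, and in Ctrl (1 called) gave 0 with all 26 libraries, with DESeq2 size factors, without a filter and without the 5, 2 by limma voom, and 0 to 1 with 1 left out.

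The replicate numbers gave no clear pairing: same-numbered libraries of different genotype had correlations of their deviations of -0.145 to 0.103 over 45 pairs of libraries, and those of the same genotype -0.122 to 0.113 over 33. Between Treg and Tconv cells these were 0.0107 to 0.113 in CNS icKO and 0.0547 to 0.0641 in dLN icKO. In Ctrl they were -0.0229 to 0.0581 in CNS and -0.0109 to 0.0866 in dLN. Whether samples came from the same mice cannot be told from these values. With the replicate block, 4 chains were called between tissues in Ctrl Tconv cells and 2 in the tissue interaction in icKO cells. Chains under about 10 CPM, Itga1 and Itgb8 above all, have the widest standard errors.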
